A study of Homo sapiens with 16 samples.

Results

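The 40 genes described here act between the end of DNA replication and the separation of the daughter cells. They were chosen by symbol from general knowledge of G2 and mitosis, at a time when earlier results of these data were known. They were found by matching each symbol to the deposited tables, where all 40 were listed at both times, each with 1 gene ID, among 18632 symbols at 3 h and 24570 at 6 h. All 40 had a mean of at least 1 TPM (a transcript level per length, scaled to one total per library) and entered the tests with 12919 symbols in all at 3 h and 14179 at 6 h.

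Entry into mitosis is driven by the kinase CDK1 bound to cyclin A or cyclin B, which CDC25 phosphatases switch on. Kinases of the PLK, Aurora and BUB families, kinesin motors and the chromosomal passenger complex then build the spindle and attach the chromosomes, and the anaphase-promoting complex ends mitosis by marking cyclin B and securin for destruction. The mRNAs of these genes are scarce in G1, build up through S phase and peak in G2 and mitosis, so in a culture that is not synchronised their level follows the share of cells in those phases as well as the activity of each gene.

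RNA of 16HBE cells was sequenced. These are human bronchial epithelial cells of the established line 16HBE14o-, grown submerged in plates in medium with little serum. The treated cultures received D. rotundifolia 3×, a low dose of a diluted ethanolic extract of the sundew Drosera rotundifolia, for 3 h or 6 h. The Ctrl cultures received the ethanol vehicle, diluted and shaken in the same way without the plant. Each of the 4 groups (Ctrl and D. rotundifolia 3× at each time) had 4 libraries, 16 in all. The 6 h cultures came from a later experiment, for which separate Ctrl cultures were run. A line of this kind stands for 1 source of cells, and the libraries of a group measure the spread between cultures of it. The paper calls the 3 h experiments biological replicates, and it states that Ctrl and treated cultures ran in parallel on shared plates. The deposited labels number the libraries of a group without saying which experiment or plate a number stands for, so p-values measure the spread between these libraries.

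The TPM of each library added up to between 997870 and 999300, and 12764 to 14239 symbols per library reached 1 TPM. The tables hold no counts, and the depth behind a value is therefore unknown. The keratin KRT8 had 5460.4 to 8171 TPM and the adhesion molecule EPCAM 289 to 348 TPM over the 16 libraries, and 8 of the 10 epithelial markers with values here had at least 1 TPM in every library. These included the basal keratins KRT5 (36.1 to 82.1 TPM), KRT17 (254 to 452 TPM) and KRT14 (1.47 to 3.67 TPM), whereas the basal transcription factor TP63 and the ciliated-cell marker FOXJ1 stayed at or below 0.172 TPM. NKX2-1, SCGB1A1 and MUC5AC, also on the list of 13 epithelial markers, had no values here. Nor had the fibroblast markers PDGFRA and DCN and the leukocyte marker MS4A1, which the counts below leave out. Of 5 leukocyte markers, CD68, a lysosomal protein, had 20.7 to 28.4 TPM, and the other 4 stayed below 1 TPM, PTPRC at or below 0.308 TPM. Of 5 fibroblast markers COL1A1 had 8.86 to 15.8 TPM, and of 5 endothelial markers CDH5 had 1.89 to 4.85 TPM; no other marker of these 3 lists had 1 TPM in every library. As a check of the treatment labels, CYP1B1, a cytochrome P450 gene that the aryl hydrocarbon receptor induces, stood at 15.4 ± 4.12 TPM in the Ctrl group and 119 ± 3.31 TPM in the treated group at 6 h (SD, n = 4 each; log2 difference 2.90, adjusted p = 0.000752 from limma). At 3 h it stood at 86.7 ± 16.8 TPM and 148 ± 28.0 TPM (SD, n = 4 each), every treated library above every Ctrl library, but it was not called (log2 difference 0.77, adjusted p = 1.00 from limma). TIPARP, another target of the receptor, was not called at 3 h either (log2 difference 0.81, adjusted p = 0.223) and was called at 6 h (1.01, adjusted p = 0.0308).

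Many genes of this phase share short promoter elements, so the promoters of the members on which the comparisons turn are shown first. They are the 4 members with the smallest p at 6 h (NUSAP1, MAD2L1, KIF11 and HMMR), the member with the smallest p at 3 h (KIF23), the member with the highest difference at 6 h (BUB1) and the cyclin B genes CCNB2 and CCNB1. Each stretch runs from 120 bases before to 30 bases after the annotated start, 5′ to 3′ on the strand of the gene, and is taken from RefSeq on GRCh38.p14. Capitals mark the CHR (cell cycle genes homology region), searched as TTTGAA or TTCGAA, and CCAAT, both on either strand, where overlapping matches run into one block of capitals.
NUSAP1: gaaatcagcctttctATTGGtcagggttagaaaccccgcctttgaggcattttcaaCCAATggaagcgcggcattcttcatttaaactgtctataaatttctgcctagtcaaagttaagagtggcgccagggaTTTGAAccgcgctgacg
MAD2L1: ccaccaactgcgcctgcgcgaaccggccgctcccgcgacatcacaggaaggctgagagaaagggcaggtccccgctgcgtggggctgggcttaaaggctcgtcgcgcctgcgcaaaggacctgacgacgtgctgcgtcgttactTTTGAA
KIF11: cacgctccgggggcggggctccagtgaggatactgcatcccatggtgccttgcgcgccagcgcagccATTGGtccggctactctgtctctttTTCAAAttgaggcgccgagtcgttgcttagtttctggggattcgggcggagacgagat
HMMR: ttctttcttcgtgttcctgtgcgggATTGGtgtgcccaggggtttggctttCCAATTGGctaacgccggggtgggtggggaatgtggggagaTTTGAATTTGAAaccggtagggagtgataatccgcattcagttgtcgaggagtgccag
KIF23: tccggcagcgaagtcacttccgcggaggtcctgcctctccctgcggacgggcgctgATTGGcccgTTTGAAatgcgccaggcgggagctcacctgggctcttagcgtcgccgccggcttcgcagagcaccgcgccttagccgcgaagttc
BUB1: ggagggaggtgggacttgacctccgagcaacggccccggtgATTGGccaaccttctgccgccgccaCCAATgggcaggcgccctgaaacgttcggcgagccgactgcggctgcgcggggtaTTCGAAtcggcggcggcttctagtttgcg
CCNB2: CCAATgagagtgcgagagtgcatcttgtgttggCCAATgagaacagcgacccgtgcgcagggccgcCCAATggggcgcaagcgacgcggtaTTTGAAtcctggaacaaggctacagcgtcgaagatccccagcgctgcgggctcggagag
CCNB1: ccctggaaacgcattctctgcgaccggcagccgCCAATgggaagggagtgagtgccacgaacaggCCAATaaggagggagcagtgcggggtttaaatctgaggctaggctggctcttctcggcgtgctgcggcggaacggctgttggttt

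The printed stretch of NUSAP1 lies on chr15:41332761-41332910 (+ strand), that of MAD2L1 on chr4:120066819-120066968 (- strand), that of KIF11 on chr10:92593010-92593159 (+ strand) and that of HMMR on chr5:163460512-163460661 (+ strand). The stretch of KIF23 lies on chr15:69414229-69414378 (+ strand), that of BUB1 on chr2:110678034-110678183 (- strand), that of CCNB2 on chr15:59105026-59105175 (+ strand) and that of CCNB1 on chr5:69167030-69167179 (+ strand). The stretches of NUSAP1, KIF11 and HMMR lie wholly inside the GENCODE bounds of these genes given below. Their RefSeq start is thus not the outermost GENCODE start. HMMR carries 2 CHR matches end to end and CCNB2 carries 3 CCAAT matches before 1 CHR match, whereas CCNB1 has 2 CCAAT matches and no CHR match in this stretch.

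RefSeq windows of 250 bases before to 50 bases after a start were found for 34 of the 40 members (44 windows, since 6 of these genes have more than 1). UBE2C, AURKA, BIRC5, TPX2, FOXM1 and TTK have no entry. A CHR match stood in a window of 26 of the 34 members (76.5%), against 5336 of 27305 genes in the whole table (19.5%). A CCAAT match stood in 30 of the 34 (88.2%), against 39.7% of all genes, and both elements stood in 24 (70.6%), against 9.02%. An E2F element, searched on both strands as TTTCCCGC, TTTCGCGC, TTTGCCGC or TTTGGCGC, stood in 2 of the 34 (5.88%, NUSAP1 and CDK1), against 3.99% of all genes and 16 of 28 genes of G1/S and DNA replication (57.1%). The CHR letters were not in the windows of CCNA2, CCNB1, NEK2, PTTG1, AURKB, CENPE, KIF20A and KIF2C. The matches are descriptions of letters and not of bound sites. Of the 41 CHR matches in the windows, 26 had their centre within 50 bases of a start, with a median of 26.5 bases before it (an offset of -26.5), and the CCAAT matches lay further out, with a median offset of -80.0.

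**Figure D1:**
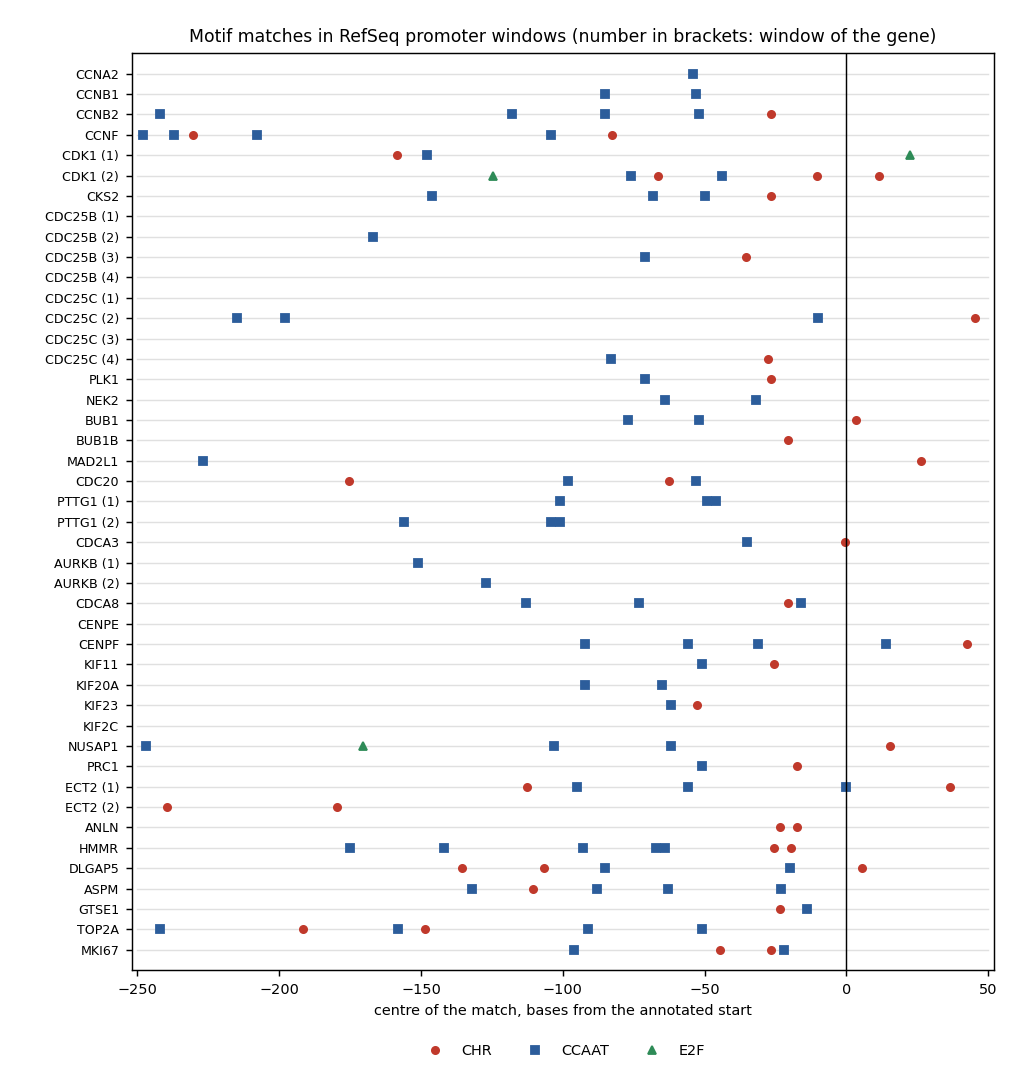
Position of the centre of each motif match (x axis, bases from the annotated start) in the promoter windows of 34 members (y axis, a line per window). Circles are CHR, squares CCAAT and triangles E2F; the circles gather just before the start, at a median offset of -26.5, and the squares at -80.0.

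After 3 h the 40 genes had nearly the same TPM in treated and Ctrl cultures. Their median log2 difference (D. rotundifolia 3× minus Ctrl, on the log2(TPM + 1) scale throughout) was 0.01, against 0.02 over all symbols, with 23 members above 0 and 17 below. When each library was rescaled by the median ratio of its TPM, the median was -0.01 and 25 of 40 lay below, against 50.6% of all symbols in place of 42.1%. None of the 40 was called at an adjusted p under 0.05 by limma, and 0 of all 12919 symbols were called in either direction (0% higher, 0% lower). The symbols not called include CYP1B1 and TIPARP, whose treated libraries all lay above the Ctrl libraries. A missing call in this fit, which has no term for replicate number, therefore does not show a missing difference. At an unadjusted p under 0.05, 1 member was higher, the kinesin KIF23, and 0 were lower, against 1.56% and 0.844% of all symbols. At this time the libraries of the same number behaved as pairs, and with the number as a block KIF20A also had an unadjusted p under 0.05 (log2 difference -0.09, adjusted p = 0.715 from limma), which made 1 member lower against 2.53% of all symbols. The count of 1 higher member rested on single libraries: it was 0 when Ctrl replicate 2, 3 or 4, treated replicate 1 or 2, or both libraries of number 2 or 4 were left out, and 2 when treated replicate 3 was. In no member did the treated libraries all lie above or all below the Ctrl libraries, against 1.02% and 0.503% of all symbols.

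After 6 h the treated means were lower for 29 of the 40 genes, against 48.3% of all symbols, and the differences were small. The median log2 difference was -0.10, against 0.01 over all symbols, and single members ranged from -0.29 (TTK) to 0.16 (BUB1). None was called at an adjusted p under 0.05 by limma (0 of 40 higher, 0 of 40 lower), where 16 of 14179 symbols were called higher (0.113%) and 0 lower (0%). At an unadjusted p under 0.05, 4 members were lower, NUSAP1, MAD2L1, KIF11 and HMMR, and 0 were higher, against 2.69% and 5.34% of all symbols. The lowest adjusted p among the members was 0.364, for NUSAP1. With the replicate number as a block, 12 members were lower at an unadjusted p under 0.05, against 4.80% of all symbols, and 0 were higher. No member was called in that fit either (lowest adjusted p 0.191 from limma). The treated libraries all lay below the Ctrl libraries for NUSAP1 and MAD2L1, against 1.65% of all symbols, and all above for 0 members, against 3.43%. The count of 4 rested on single libraries: it was 11 when Ctrl replicate 2 was left out, 7 when treated replicate 1 was, and 2 when Ctrl replicate 3, treated replicate 2 or treated replicate 4 was left out. The members varied together between libraries at 6 h, as described below, so a count such as 29 of 40 does not rest on 40 independent results. In bulk RNA, fewer cells in G2 and mitosis and less RNA of these genes per cell cannot be told apart.

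The 95% intervals say how large a difference these libraries leave room for. At 3 h, 38 of 40 intervals lay within 0.4 on either side of 0 on the log2 scale, a 1.32-fold difference, and the exceptions were MKI67, which reached down to -0.44, and TTK, which reached up to 0.44. With the replicate number as a block, all 40 intervals at 3 h lay within that range (-0.37 to 0.18 for MKI67, -0.09 to 0.28 for TTK). At 6 h without the block, 31 of 40 intervals lay within that range and all 40 upper bounds lay below 0.4. The other 9 intervals reached lower, down to -0.69 for MKI67 and -0.67 for TTK, and to between -0.53 and -0.41 for ASPM, CENPF, ANLN, KIF20A, DLGAP5, TOP2A and HMMR. With the block, 36 of 40 intervals at 6 h lay within that range. The lowest bound was then -0.60, for TTK, and the highest 0.34, for BUB1, while MKI67 reached down to -0.29.

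**Figure D2:**
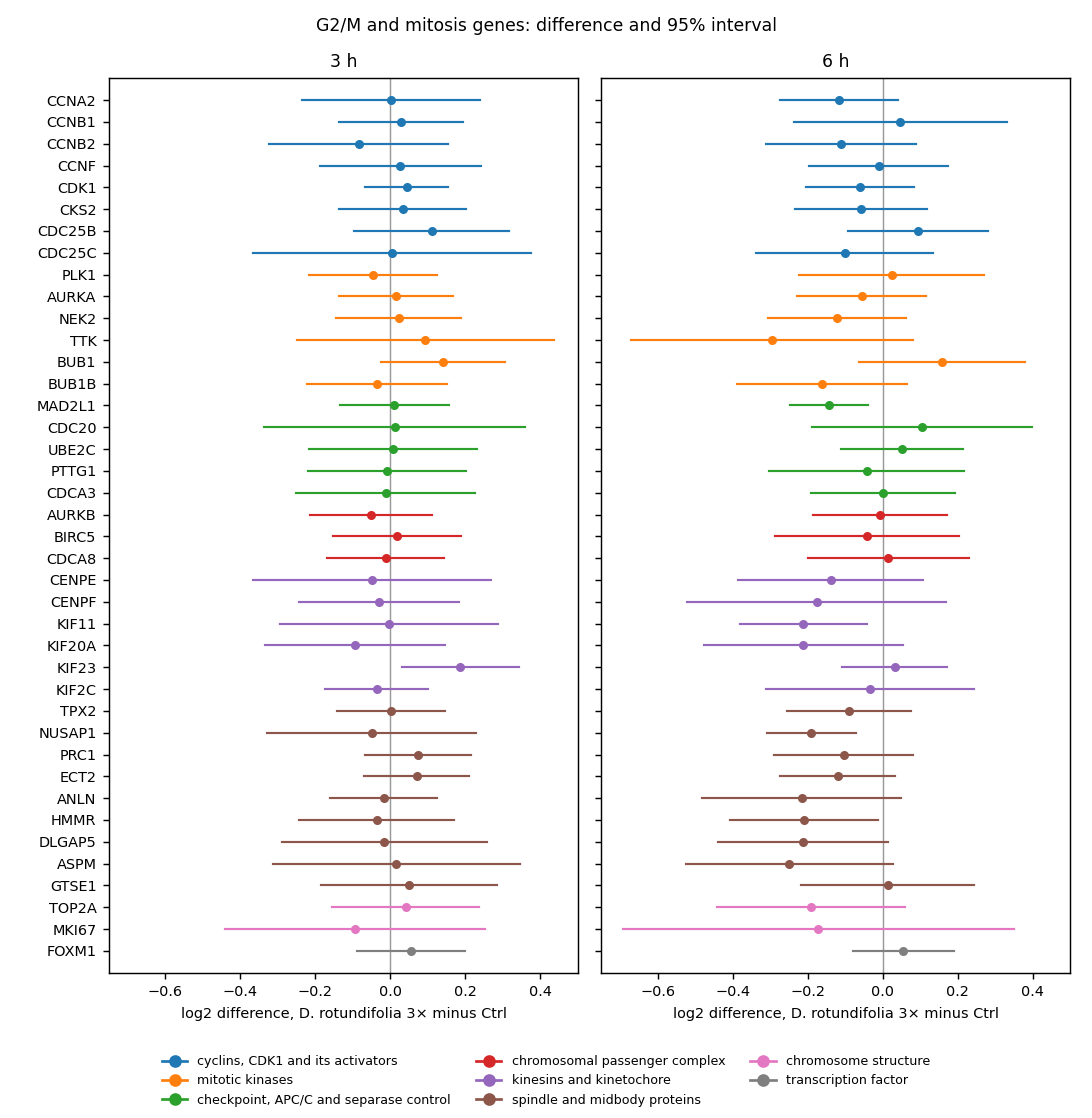
Log2 difference of D. rotundifolia 3× minus Ctrl (x axis) for each of the 40 genes (y axis) at 3 h and 6 h, with points at the estimate, bars for the 95% interval without the replicate block and colours for the role. At 3 h the points sit on both sides of 0 with a median of 0.01, and at 6 h most spindle, kinesin and chromosome genes sit left of it, while 4 intervals do not reach 0.

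The first role group holds the engine of mitotic entry: CDK1, its cyclins, its adaptor CKS2 and the phosphatases that activate it. CCNB1, which encodes cyclin B1, was the most abundant of all 40 mRNAs in Ctrl at both times, with 322 ± 23.2 TPM at 3 h and 313 ± 42.5 TPM at 6 h (SD, n = 4). CCNA2 encodes cyclin A2, the partner of CDK1 and CDK2 in S phase and G2. Its 6 h values were 47.1, 44.3, 50.9 and 52.7 TPM in Ctrl replicates 1 to 4 and 45.7, 41.8, 44.9 and 47.0 TPM in the treated ones. Each treated library was lower than the Ctrl library of its number, yet the groups overlapped (log2 difference -0.12, 95% interval -0.27 to 0.04, adjusted p = 0.719 from limma). At 3 h its values were 35.6, 44.1, 43.8 and 43.6 TPM in Ctrl and 35.0, 44.1, 42.1 and 46.2 TPM in treated cultures. Replicate 1 was the low one in both groups, and the log2 difference was 0.00 (95% interval -0.24 to 0.24, or -0.10 to 0.10 with the number as a block).

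CDC25B, the phosphatase thought to start the activation of CDK1 at the centrosome, had the smallest p of the group at 3 h, with 50.1, 53.3, 49.9 and 48.4 TPM in Ctrl and 48.3, 65.2, 52.6 and 52.9 TPM in treated cultures. A single treated library, replicate 2, stood above the rest (log2 difference 0.11, 95% interval -0.10 to 0.32, adjusted p = 1.00 from limma). At 6 h CDC25B had 51.3, 49.7, 54.5 and 55.9 TPM in Ctrl and 57.4, 57.6, 48.8 and 63.0 TPM in treated cultures, with 3 of 4 treated libraries above every Ctrl library (log2 difference 0.10, 95% interval -0.09 to 0.28). CDK1 itself had a log2 difference of 0.04 at 3 h and -0.06 at 6 h, and its adaptor CKS2 had 0.03 and -0.06. CCNB1 had 0.03 and 0.05, whereas CCNB2, the cyclin B of the Golgi, had -0.08 and -0.11. CCNF, a cyclin that serves a ubiquitin ligase, had 0.03 and -0.01, and CDC25C, a phosphatase that CDK1 itself boosts, 0.00 and -0.10. Over the whole group 6 of 8 means were lower at 6 h, with a median of -0.06.

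Among the mitotic kinases the means went both ways. BUB1 (ENSG00000169679; GRCh38 chromosome 2, 110637528 to 110678063), a kinase of the spindle checkpoint that recruits other checkpoint proteins to the kinetochore, had 44.7, 43.2, 43.6 and 45.5 TPM in Ctrl and 51.9, 50.9, 42.5 and 50.9 TPM in treated cultures at 3 h. In 3 of 4 treated libraries it exceeded every Ctrl library, and in replicate 3 it lay below them (log2 difference 0.14, 95% interval -0.03 to 0.31, adjusted p = 1.00 from limma). With the number as a block, the interval for BUB1 at 3 h was -0.003 to 0.28 (adjusted p = 0.721 from limma). At 6 h BUB1 had 62.5, 53.0, 73.4 and 65.0 TPM in Ctrl and 74.7, 67.7, 73.9 and 66.1 TPM in treated cultures. It was higher in every same-numbered treated library, although the groups overlapped, and it had the highest difference of the 40 genes (log2 0.16, 95% interval -0.06 to 0.38, adjusted p = 0.726 from limma).

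TTK, also called MPS1, is the kinase at the head of the spindle checkpoint. After 6 h there were 85.0, 55.5, 75.9 and 89.2 TPM in Ctrl and 76.5, 54.9, 61.4 and 54.1 TPM in treated cultures. Ctrl replicate 2 was as low as the treated libraries, and the lowest difference of the 40 genes came with a wide interval (log2 -0.29, 95% interval -0.67 to 0.08, adjusted p = 0.705 from limma). At 3 h TTK had 62.5, 71.9, 86.0 and 63.2 TPM in Ctrl and 57.0, 79.9, 90.2 and 77.3 TPM in treated cultures, and replicate 3 was the highest in both groups (log2 difference 0.09). BUB1B, the checkpoint protein BUBR1, had a log2 difference of -0.04 at 3 h and -0.16 at 6 h, and NEK2, a kinase that separates centrosomes, 0.02 and -0.12. AURKA, the kinase of the spindle poles, had 0.02 and -0.06, and PLK1, which acts from mitotic entry to cytokinesis, -0.05 and 0.02.

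The third group controls the checkpoint and the exit from mitosis. MAD2L1 (ENSG00000164109; GRCh38 chromosome 4, 120055623 to 120066858) encodes MAD2, the checkpoint protein that holds back the anaphase-promoting complex until all chromosomes are attached. The 6 h values were 109, 105, 106 and 111 TPM in Ctrl and 101, 94.8, 94.7 and 100 TPM in treated cultures. All 4 treated libraries lay below all 4 Ctrl libraries (log2 difference -0.14, 95% interval -0.25 to -0.04, adjusted p = 0.463 from limma), a ratio of 0.906. At 3 h it had 96.3, 96.1, 112 and 97.7 TPM in Ctrl and 96.7, 101, 101 and 106 TPM in treated cultures, with Ctrl replicate 3 the highest of all (log2 difference 0.01, 95% interval -0.14 to 0.16). CDC20, the activator of the complex that MAD2 restrains, had a log2 difference of 0.01 at 3 h and 0.11 at 6 h. UBE2C, the ubiquitin-conjugating enzyme of the complex, had 0.01 and 0.05, PTTG1, which encodes securin, -0.01 and -0.04, and CDCA3, a part of a ligase that removes the mitotic inhibitor WEE1, -0.01 and 0.00.

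The 3 genes of the chromosomal passenger complex, which corrects faulty attachments and later guides cytokinesis, had log2 differences between -0.05 and 0.02 at both times. Its kinase AURKB had 105, 117, 102 and 103 TPM in Ctrl and 94.9, 114, 101 and 101 TPM in treated cultures at 3 h, lower in each same-numbered library with overlapping groups (log2 difference -0.05, 95% interval -0.22 to 0.11). At 6 h it had 120, 113, 126 and 119 TPM in Ctrl and 107, 110, 130 and 130 TPM in treated cultures, 2 of them below and 2 above the Ctrl range (log2 difference -0.01). BIRC5, which encodes survivin, had 87.8, 63.6, 88.1 and 71.6 TPM in Ctrl and 78.4, 72.3, 77.4 and 71.6 TPM in treated cultures at 6 h. The treated values lay inside the Ctrl range (log2 difference -0.04, 95% interval -0.29 to 0.20), and at 3 h the difference was 0.02. CDCA8, which encodes borealin, had -0.01 at 3 h and 0.02 at 6 h.

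Of the kinesins and kinetochore genes, 5 of 6 had a lower treated mean at 6 h, with a median log2 difference of -0.16. KIF11 (ENSG00000138160; GRCh38 chromosome 10, 92574105 to 92655395) encodes Eg5, the motor that pushes the spindle poles apart. Its mRNA stood at 42.3, 39.1, 46.5 and 42.7 TPM in Ctrl at 6 h and 39.3, 34.2, 38.9 and 34.5 TPM in treated cultures. A single treated library, replicate 1, reached above the lowest Ctrl library (log2 difference -0.21, 95% interval -0.38 to -0.04, adjusted p = 0.521 from limma). At 3 h KIF11 had 28.0, 37.7, 39.3 and 37.6 TPM in Ctrl and 29.1, 37.4, 36.5 and 38.9 TPM in treated cultures, with replicate 1 low in both groups and a log2 difference of -0.0031.

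KIF23 (ENSG00000137807; GRCh38 chromosome 15, 69414246 to 69448427), a motor of the central spindle needed for cytokinesis, was the single member with an unadjusted p under 0.05 at 3 h. It had 38.3, 32.8, 32.4 and 34.2 TPM in Ctrl and 40.1, 40.4, 37.3 and 39.2 TPM in treated cultures. Only Ctrl replicate 1 reached into the treated range (log2 difference 0.19, 95% interval 0.03 to 0.34, adjusted p = 1.00 from limma). With the number as a block, the interval for KIF23 at 3 h was 0.06 to 0.31 (adjusted p = 0.633 from limma). At 6 h it had 42.1, 38.3, 41.7 and 40.6 TPM in Ctrl and 40.4, 41.1, 45.6 and 39.6 TPM in treated cultures, and the groups overlapped (log2 difference 0.03). KIF20A, a motor of late mitosis, had a log2 difference of -0.09 at 3 h and -0.21 at 6 h, and the kinetochore protein CENPF had -0.03 and -0.18. The kinetochore motor CENPE had -0.05 and -0.14, and the microtubule depolymerase KIF2C -0.04 and -0.03.

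The spindle and midbody proteins had the lowest median of the role groups at 6 h, -0.19, with 8 of 9 means lower. NUSAP1 (ENSG00000137804; GRCh38 chromosome 15, 41320794 to 41381050) encodes a protein that bundles spindle microtubules around the chromosomes. Its mRNA stood at 171, 172, 169 and 179 TPM in Ctrl at 6 h and 157, 143, 146 and 160 TPM in treated cultures. The highest treated library stayed below the lowest Ctrl library (log2 difference -0.19, 95% interval -0.31 to -0.07, adjusted p = 0.364 from limma), a ratio of 0.876 with an interval of 0.807 to 0.952. At 3 h NUSAP1 had 87.7, 125, 114 and 115 TPM in Ctrl and 92.7, 124, 103 and 106 TPM in treated cultures. Replicate 1 was the lowest and replicate 2 the highest in both groups, and the log2 difference was -0.05 (95% interval -0.33 to 0.23).

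HMMR (ENSG00000072571; GRCh38 chromosome 5, 163460203 to 163491941), a microtubule-binding protein of the spindle poles, had 86.8, 76.7, 87.9 and 86.0 TPM in Ctrl and 83.9, 63.7, 71.9 and 72.5 TPM in treated cultures at 6 h. Treated replicate 1 lay above Ctrl replicate 2, and the other 3 treated libraries lay below all Ctrl libraries (log2 difference -0.21, 95% interval -0.41 to -0.01, adjusted p = 0.593 from limma). PRC1, which crosslinks the central spindle, had the smallest p of the group at 3 h, with 197, 214, 193 and 188 TPM in Ctrl and 200, 224, 213 and 197 TPM in treated cultures (log2 difference 0.07, 95% interval -0.07 to 0.21, or -0.006 to 0.15 with the number as a block). It was higher in every same-numbered treated library at 3 h, while at 6 h it had 238, 227, 280 and 251 TPM in Ctrl and 254, 213, 238 and 220 TPM in treated cultures (log2 difference -0.10, 95% interval -0.29 to 0.08).

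ASPM, a spindle pole protein, had a log2 difference of 0.02 at 3 h and -0.25 at 6 h, and ANLN, the scaffold of the contractile ring, -0.02 and -0.22. DLGAP5, a stabiliser of spindle fibres, had -0.02 and -0.21, and ECT2, the exchange factor that starts cytokinesis, 0.07 and -0.12. TPX2, the activator of AURKA, had 0.00 and -0.09. GTSE1, a microtubule-binding protein of G2 and mitosis, had 0.05 and 0.01 and was the exception in sign at 6 h, and HMMR had -0.04 at 3 h.

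TOP2A, the topoisomerase that untangles sister chromatids, had 157, 120, 167 and 152 TPM in Ctrl and 141, 116, 139 and 124 TPM in treated cultures at 6 h. Each treated library was below its Ctrl number, but Ctrl replicate 2 was as low as the treated ones (log2 difference -0.19, 95% interval -0.44 to 0.06, adjusted p = 0.710 from limma). At 3 h its log2 difference was 0.04. MKI67, the gene of the Ki-67 proliferation antigen that coats mitotic chromosomes, varied most between libraries at 6 h, with 66.9, 55.6, 91.3 and 49.8 TPM in Ctrl and 61.0, 52.5, 78.5 and 41.5 TPM in treated cultures. Both groups had the same order of replicates, 3 highest and 4 lowest, and the spread within a group exceeded the difference (log2 -0.17, 95% interval -0.69 to 0.35). With the replicate number as a block, the interval for MKI67 was -0.29 to -0.05, and it was not called (adjusted p = 0.260 from limma). At 3 h MKI67 had 50.2, 58.4, 59.3 and 58.1 TPM in Ctrl and 41.2, 52.9, 48.8 and 72.4 TPM in treated cultures (log2 difference -0.09).

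FOXM1 encodes the transcription factor that switches on many genes of this set in G2. It had 60.1, 63.6, 65.2 and 70.5 TPM in Ctrl and 63.5, 67.4, 69.9 and 68.4 TPM in treated cultures at 3 h. At 6 h it had 60.3, 63.9, 68.2 and 65.7 TPM in Ctrl and 64.1, 65.1, 67.2 and 72.0 TPM in treated cultures. The groups overlapped at both times, with log2 differences of 0.05 (95% interval -0.09 to 0.20) and 0.06 (95% interval -0.08 to 0.19), and at 6 h its mean was higher where those of 29 other members were lower.

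**Figure D3:**
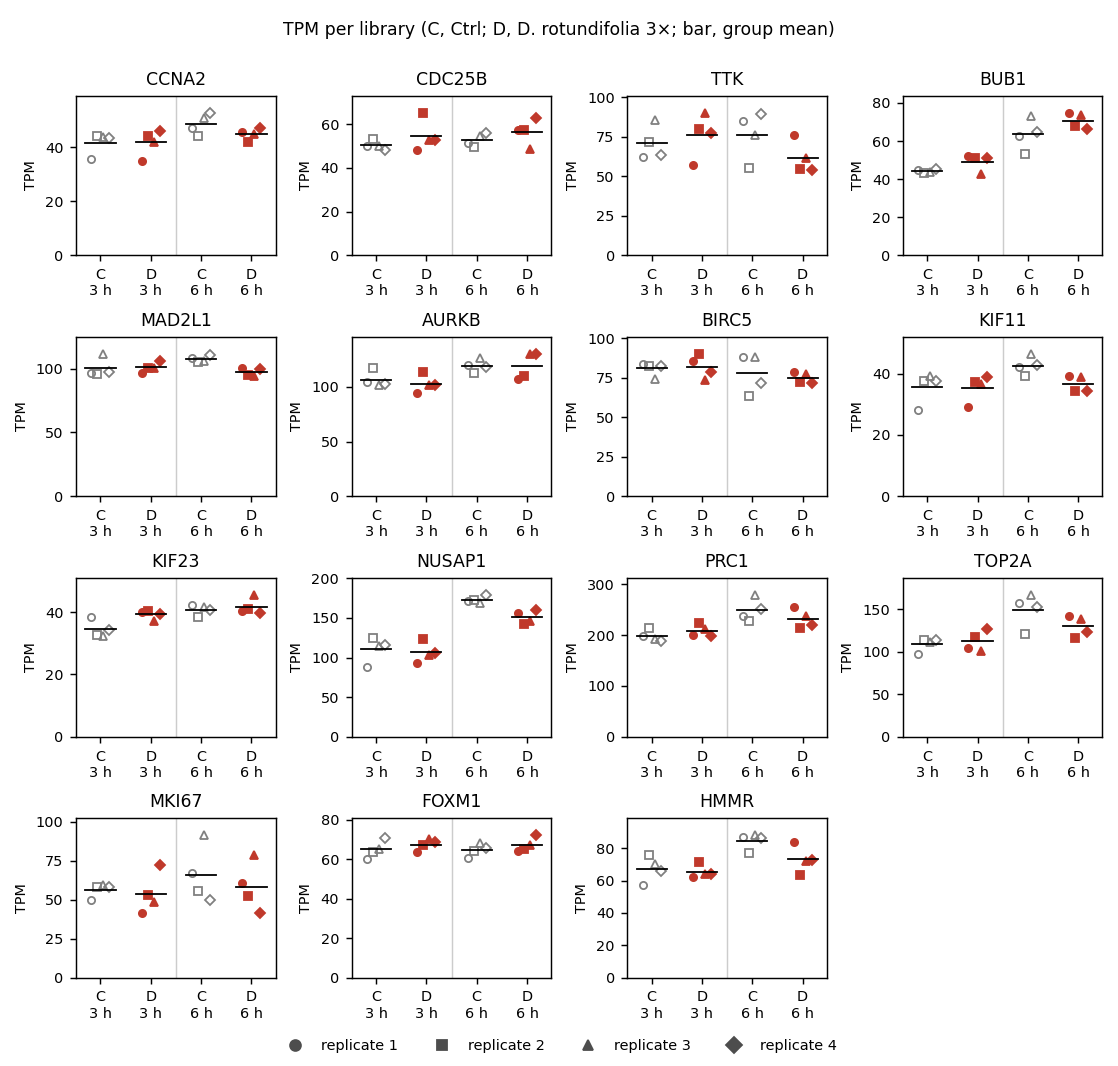
TPM (y axis, from 0) in each library of 15 members, for Ctrl (C, open) and D. rotundifolia 3× (D, filled) at 3 h and 6 h, with the replicate as marker shape and the group mean as a bar. NUSAP1 and MAD2L1 are the genes whose treated libraries at 6 h all sit below the Ctrl libraries, at 143 to 160 against 169 to 179 TPM and at 94.7 to 101 against 105 to 111 TPM.

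Whether the treatment acted differently at the 2 times was tested as an interaction over all 16 libraries. The difference at 6 h was lower than that at 3 h in 30 of 40 members, with a median of -0.09 on the log2 scale against -0.01 over all symbols. No member was called by limma at an adjusted p under 0.05, where 1 of 12623 symbols was (0.00792%), and 0 members had an unadjusted p under 0.05, against 3.49% of all symbols. The smallest p belonged to ECT2, with a difference between times of -0.19 (95% interval -0.38 to 0.00, adjusted p = 0.999 from limma). With the replicate number within each time as a block, 10 members had an unadjusted p under 0.05 with the lower difference at 6 h, against 4.78% of all symbols, and 0 members with the higher one. Of all symbols 32 were then called, no member among them (lowest adjusted p of a member 0.305). The times were separate experiments, so a difference between times and one between experiments cannot be told apart.

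Libraries of one group also differed among themselves, with many members at once. A library's deviation is taken here as log2(TPM + 1) minus the mean of its group. At 6 h, the Ctrl library of replicate 2 had 0 of 40 members above its group's mean (median deviation -0.16), and the treated library of replicate 2 had 2 of 40 (median -0.12). In the same libraries 29 of 33 genes of G1/S and DNA replication lay above the mean, with medians of 0.09 in both. In Ctrl replicate 2, TTK deviated most, by -0.43, and NUSAP1 least, by -0.0048. Without replicate 2 the median difference of the members at 6 h was -0.11, with 29 of 40 means lower and 7 at an unadjusted p under 0.05.

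At 3 h replicate 1 stood apart in another way. The G1/S genes were low there, with 2 of 33 above the group's mean in either group (medians -0.17 in Ctrl and -0.16 in treated cultures), while the members split. In Ctrl replicate 1, CDC20 deviated by 0.37 and CDC25C by -0.35, and in treated replicate 1 CDC20 deviated by 0.28 and CENPE by -0.40. In both libraries 13 members lay above the group's mean and 24 below it. Of the spindle and midbody proteins 7 of 9 lay below it in both, of the mitotic kinases 4 of 6 lay above it, and the cyclins and activators of CDK1 split, with 3 of 8 above and 5 below. Replicate 2 at 3 h had 31 of 40 members above the mean in Ctrl and 36 of 40 in treated cultures. Without replicate 1 the median difference of the members at 3 h was 0.01, with 15 of 40 means lower. What set these libraries apart was not tested.

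**Figure D4:**
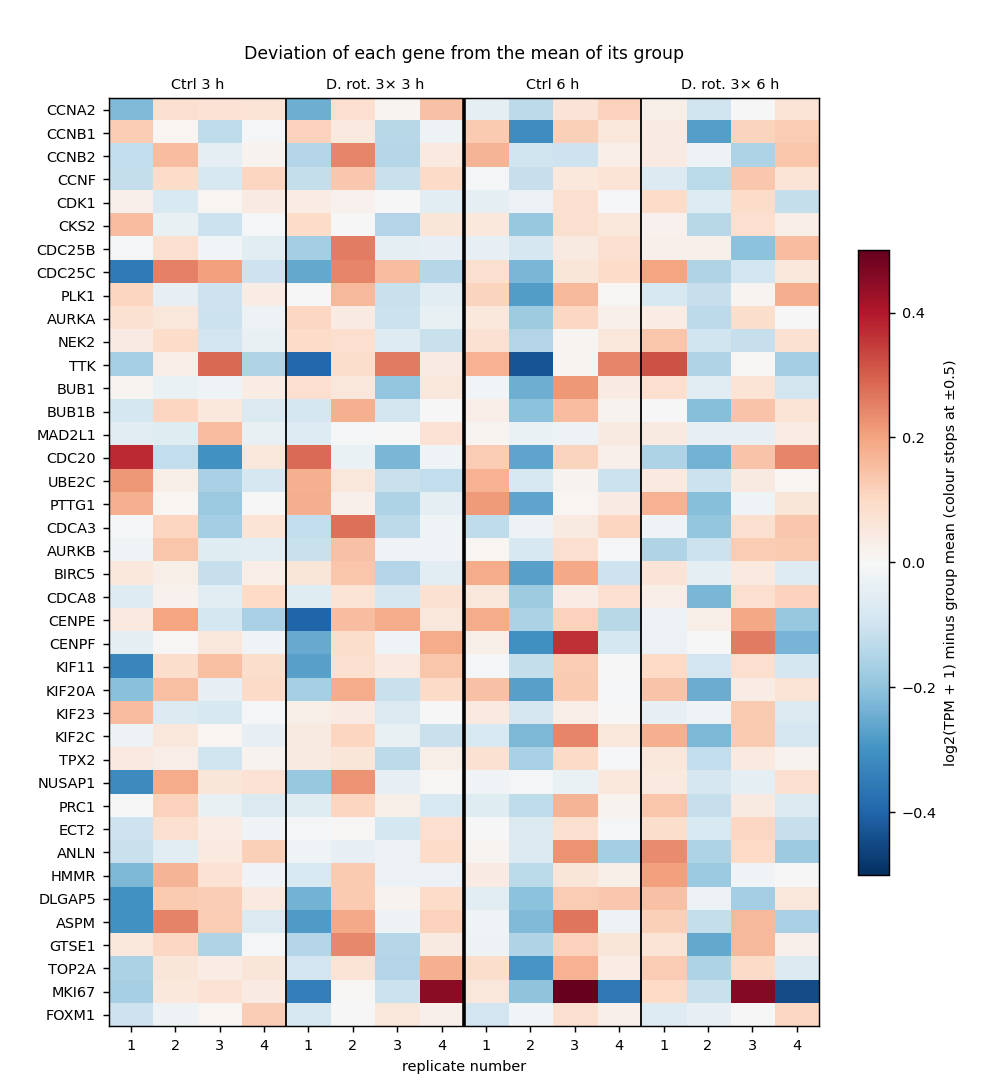
Deviation of log2(TPM + 1) of each of the 40 genes (rows) from the mean of its group in each of the 16 libraries (columns, by replicate number), red above and blue below. The column of Ctrl replicate 2 at 6 h is blue throughout, with 0 of 40 genes above the mean, and replicate 1 at 3 h is mixed in the same way in both groups.

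**Figure D5:**
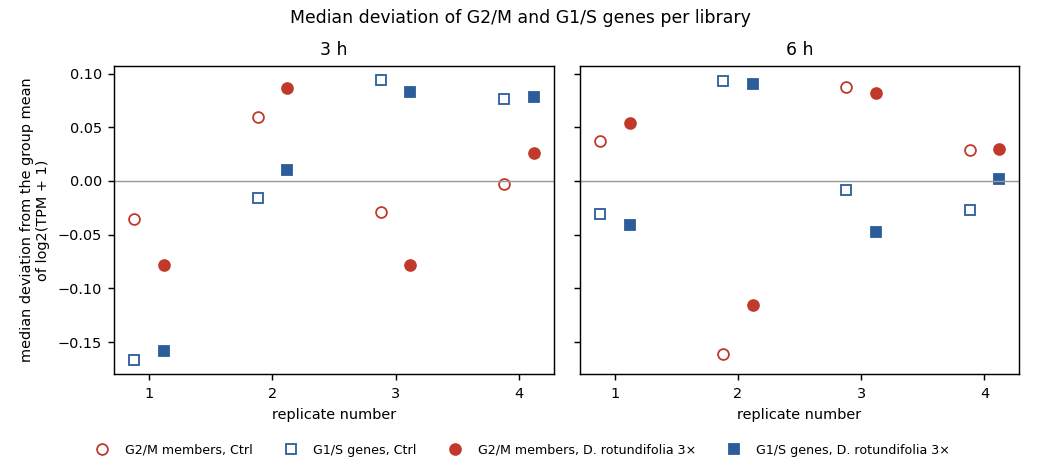
Median deviation from the group mean (y axis, log2 scale) of the 40 G2/M genes (circles) and 33 G1/S genes (squares) in each library (x axis, replicate number), open for Ctrl and filled for D. rotundifolia 3×. Replicate 2 at 6 h has the G2/M genes at -0.16 and -0.12 and the G1/S genes at 0.09, and replicate 1 at 3 h has the G1/S genes at -0.17 and -0.16.

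Over the 40 genes, the deviations of same-numbered Ctrl and treated libraries correlated with r = 0.745, 0.737, 0.690 and 0.337 for replicates 1 to 4 at 3 h and 0.0927, 0.341, 0.709 and 0.584 at 6 h. These are descriptions across genes of 2 libraries each, and genes are not independent replicates.

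A list of 51 other genes of G2 and mitosis, among them subunits of the kinetochore and of condensin, was measured beside the 40. At 3 h 17 of the 51 had a lower treated mean and the median log2 difference was 0.03. At 6 h 39 of 51 were lower, with a median of -0.04, and none of them was called by limma at either time. At an unadjusted p under 0.05, 1 was higher at 3 h, the spindle protein gene CKAP2L (log2 difference 0.23, adjusted p = 1.00 from limma), and at 6 h 2 were lower and 1 higher. Of all symbols, 1.56% were higher at that level at 3 h, and 2.69% were lower and 5.34% higher at 6 h. The kinetochore subunit NDC80 had 83.4 ± 3.47 TPM in Ctrl and 68.6 ± 3.97 TPM in treated cultures at 6 h (SD, n = 4; log2 difference -0.28, adjusted p = 0.190 from limma), and the condensin subunit NCAPG had 82.3 ± 6.73 and 67.9 ± 4.79 TPM (log2 difference -0.27, adjusted p = 0.374 from limma). PKMYT1, a kinase that restrains CDK1, had 81.2 ± 5.40 TPM in Ctrl and 94.1 ± 6.79 TPM in treated cultures at 6 h (SD, n = 4; log2 difference 0.21, adjusted p = 0.488 from limma). The CHR letters stood in promoter windows of 34 of the 43 of these genes that have one (79.1%).

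Of 12 regulators of G2/M transcription, subunits and partners of the DREAM and MuvB complexes and of NF-Y, which act through the CHR and CCAAT, none was called by limma. At an unadjusted p under 0.05, 0 differed at 3 h, and at 6 h RBL1 and LIN52 were lower and E2F4 higher. Of all symbols, 2.69% were lower and 5.34% higher at that level at 6 h. RBL1, which encodes the repressor p107, had a log2 difference of -0.21 (adjusted p = 0.482 from limma), LIN52, a MuvB subunit, -0.21 (adjusted p = 0.582) and E2F4, a repressor E2F, 0.26 (adjusted p = 0.516).

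Of 12 tested brakes on CDK1 and G2, none was called, and 2 had an unadjusted p under 0.05 at 6 h, both higher, against 5.34% of all symbols. GADD45A, a stress gene that hinders the CDK1 and cyclin B1 complex, had 28.0 ± 1.64 TPM in Ctrl and 41.7 ± 4.83 TPM in treated cultures at 6 h (SD, n = 4; log2 difference 0.55, adjusted p = 0.0860 from limma). CDKN1A, which encodes the inhibitor p21, had 79.9 ± 10.3 and 117 ± 25.8 TPM (log2 difference 0.52, adjusted p = 0.441 from limma). At 3 h GADD45A ranged from 33.8 to 110 TPM over the 8 libraries and CDKN1A from 70.9 to 183 TPM, and their log2 differences were 0.25 and 0.04. SFN, the 14-3-3 sigma protein that keeps CDK1 in the cytoplasm, had a log2 difference of 0.20 at 6 h (adjusted p = 0.644 from limma).

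Of 33 genes of G1/S and DNA replication, 15 had a lower treated mean at 3 h and 21 at 6 h, with medians of 0.01 and -0.02, and none was called by limma. At 6 h CCND1, which encodes cyclin D1, had 84.4 ± 8.76 TPM in Ctrl and 118 ± 22.7 TPM in treated cultures (SD, n = 4; log2 difference 0.47, adjusted p = 0.427 from limma). CCNE1, which encodes cyclin E1, had a log2 difference of 0.28 (adjusted p = 0.592 from limma) and CHAF1B, a histone chaperone of replicating DNA, 0.22 (adjusted p = 0.575 from limma). The members' median at 6 h, -0.10, thus stood beside -0.04 for the other genes of G2 and mitosis, -0.02 for the G1/S genes and 0.01 for all symbols.

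In the vehicle cultures alone, 13 of 40 members had all 4 Ctrl libraries of the 6 h experiment above all 4 of the 3 h experiment, and 0 had them all below, against 11.8% and 11.4% of the symbols listed at both times. NUSAP1 stood at 87.7 to 125 TPM at 3 h and 169 to 179 TPM at 6 h, whereas FOXM1 stood at 60.1 to 70.5 and 60.3 to 68.2 TPM. The tables of the times were made separately, so these levels are set side by side without a test.

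A promoter match went with no clear order of the members' differences. At 6 h the 26 members with a CHR match had a median log2 difference of -0.11 (18 lower), and the 8 with a promoter window and no match had -0.08 (7 lower), and at 3 h the medians were 0.01 and -0.02.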

How the data were processed

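The 16 RNA-seq libraries of 16HBE cells were assigned to Ctrl or D. rotundifolia 3× at 3 h or 6 h from the titles deposited with them. Per the labels and the methods of the study, the authors used Salmon 0.13.1 to assign single-end reads to GENCODE transcripts (GRCh38.p13), tximport to sum to genes, a minimum of reads per gene, and DESeq2 1.22.2 for their tests on counts. The authors deposited a table of TPM per gene and library for each time (19303 gene IDs at 3 h and 24671 at 6 h, where 89 repeated rows were dropped). TPM keeps nothing of a library's depth, and the header of the tables calls the values length-scaled. The same tables hold the authors' mean of normalized counts (a signal), log2 fold change and its standard error, test score and p-value, adjusted and not; none of these was used.

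TPM was summed over the gene IDs of a symbol and tested as log2(TPM + 1) with limma 3.58.1 in R 4.3.3, moderated with a trend, two-sided, without a term for replicate number, and symbols whose mean in the fitted libraries was below 1 TPM were left out. The p-values were adjusted by Benjamini-Hochberg over all symbols tested, with a threshold of 0.05. Because the pseudocount of 1 shrinks log2 differences, those of low genes are understated. The fits were run on simulated data in which genes varied independently and the planted differences were larger than those of the members. That run does not show whether differences as small as the members' would be found. Members and gene lists were chosen with earlier results of these data known. By rule, every member is named, values per library are given for the member of each role group with the smallest p at each time (HMMR was added after its values were seen), and of other lists up to 3 genes with the smallest p at each time could be named. A test of Ctrl at 6 h against Ctrl at 3 h had been planned and was not made, because the tables were made separately and time and experiment coincide.

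Residuals of same-numbered Ctrl and treated libraries correlated over all symbols at 0.469, 0.255, 0.219 and 0.187 at 3 h, all above a bound of 0.1. Every library there correlated best with its own number, and the numbers therefore count as pairs at 3 h. The main fit had no term for the number at either time. Intervals and p-values at 3 h therefore ignore this pairing unless the block is named. Promoter windows are RefSeq's on GRCh38.p14, and gene coordinates are those of GENCODE 44 on GRCh38, whose IDs matched all 40 members. Figures were made in Python 3.11.15 with matplotlib 3.10.9 and pandas 2.3.3.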

Additional observations from a re-analysis of the deposited data

Results flagged for a closer look

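In 12 of 160 groups of 4 libraries, 1 library of a member lay far from the other 3 by Dixon's criterion, which chance meets in about 1 of 20 groups. At 3 h, Ctrl replicate 1 was low for CCNA2 (35.6 TPM, the others 43.6 to 44.1), KIF11 (28.0, the others 37.6 to 39.3), TOP2A (97.3, the others 111.5 to 113) and MKI67 (50.2, the others 58.1 to 59.3). Ctrl replicate 3 at 3 h was high for MAD2L1 (112 TPM, the others 96.1 to 97.7) and low for BIRC5 (74.4, the others 82.5 to 83.9). Of the treated libraries at 3 h, replicate 3 was low for BUB1 (42.5 TPM, the others 50.9 to 51.9) and TPX2 (62.0, the others 69.4 to 70.9), and replicate 4 was high for ANLN (249.8 TPM, the others 228 to 231). At 6 h, Ctrl replicate 2 was low for CKS2 (143 TPM, the others 169.7 to 173), CDC25C (21.3, the others 26.2 to 26.8) and HMMR (76.7, the others 86.1 to 87.9).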

How the results depend on the processing

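The count of called members was 0 in each direction at 3 h, at 6 h and for the difference between times under every alternative: libraries rescaled by the median ratio, a pseudocount of 0.1, no filter or a mean of at least 5 TPM, single gene IDs, limma without a trend, all 16 libraries in one fit, the replicate block, and each library or replicate number left out. Leaving out libraries moved the members' median log2 difference between -0.02 and 0.03 at 3 h, between -0.14 and -0.04 at 6 h and between -0.15 and -0.05 for the difference between times. The number of members with a lower mean ran from 12 to 26 at 3 h and from 25 to 34 at 6 h. Members whose difference lay near 0 changed sign. Rescaling gave -0.016 for CCNA2 and -0.0068 for MAD2L1 at 3 h. Leaving out libraries gave, at 3 h, -0.072 to 0.082 for CCNA2, -0.026 to 0.064 for MAD2L1, -0.018 to 0.10 for TOP2A, -0.11 to 0.087 for KIF11, -0.16 to 0.014 for NUSAP1, -0.029 to 0.066 for BIRC5 and -0.24 to 0.021 for MKI67, and at 6 h, -0.055 to 0.046 for AURKB, -0.13 to 0.022 for BIRC5 and -0.011 to 0.062 for KIF23. At 6 h NUSAP1 stayed between -0.22 and -0.16, MAD2L1 between -0.16 and -0.13 and KIF11 between -0.25 and -0.17 under those fits. Over all symbols the calls at 6 h ran from 3 to 47 (16 with all libraries). At 6 h the correlations of same-numbered libraries over all symbols were 0.0564, 0.0973, 0.158 and 0.204, not all above the bound of 0.1. The main fit had no term for the number at either time, also at 3 h, where the numbers count as pairs. The weak correlations at 6 h cannot show that the cultures were unpaired. With the replicate number as a block, the members' medians stayed at 0.01 at 3 h, -0.10 at 6 h and -0.09 for the difference between times, the lowest adjusted p of a member at 6 h was 0.191 (limma), 12 in place of 4 members had an unadjusted p under 0.05 there (4.80% of all symbols were lower at that level), and 40 in place of 16 symbols were called; 18 of 40 members (45%) were lower in all 4 same-numbered libraries, against 9.94% of all symbols. Because the members varied together between libraries at 6 h, these counts of members are not counts of independent results. In the narrower promoter window of 100 bases before to 50 after a start, 70.6% of members held the CHR, against 9.09% of all genes, 79.4% CCAAT and 2.94% E2F. For Ctrl at 6 h against Ctrl at 3 h no other setting was run, since that test was not made. With the depth of single libraries unknown, counting error could not be separated from the spread between cultures.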
